A study of Homo sapiens with 12 samples.

Results

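The genes described here are the potassium, calcium, sodium and transient receptor potential (TRP) channel genes measured in the melanoma lines MeWo and SkMel28. They were chosen by symbol: names starting with KCN or CACN, SCN with a digit, and TRPA, TRPC, TRPM, TRPP or TRPV with a digit. TRPM1, TRPC4AP and hyphenated symbols were left out. Of 45 symbols with these beginnings 5 were left out, which gave 40 channel genes among 12616 listed genes, of which 28 code for pore-forming subunits, 11 for auxiliary or regulatory subunits and 1, KCNQ1OT1, for a noncoding RNA. Both lines, which are established human cutaneous melanoma lines, carried a doxycycline (Dox) inducible hairpin against MITF, the melanocyte lineage transcription factor. Each was kept for 8 days with 0 µg/ml Dox (control) or 1 µg/ml Dox, with 3 libraries in each of the 4 groups, made by 3′ end sequencing of total RNA. The labels give EMEM as the medium of MeWo and RPMI as that of SkMel28, whereas the study's methods name RPMI for every human melanoma line except HBL, so it is not settled whether the lines shared a medium. If the labels are right, line and medium cannot be told apart. Every group carried the hairpin and no line received Dox without it, so a change with Dox is that of hairpin and drug together.

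Ion channels are membrane proteins that open a path for selected ions. Voltage-gated potassium, calcium and sodium channels open when the membrane potential shifts, whereas calcium-activated, inwardly rectifying and two-pore-domain potassium channels set or restore that potential under other conditions. TRP channels are cation channels, many of which pass calcium, and they respond to heat, cold, stretch, osmotic change or chemical ligands. Auxiliary subunits bind the pore-forming subunits and alter their traffic or gating. Melanocytes are not classically excitable cells, but ion channels are also expressed in pigment cells and in melanoma.

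Values are reads per 1000000 of effective library size, as normalised by the authors with edgeR, and changes are differences of log2(value + 1), which understate the change of low genes. A gene was called when the adjusted p of limma, with Benjamini-Hochberg adjustment over the 12616 genes, was under 0.05. Libraries held 2568187 to 3714608 reads, so that 1 read is a value of 0.278 to 0.389, and a library with 0 reads allows up to 3 reads, a value of 0.835 to 1.17. Levels of 3′ end counts are tested between groups for 1 gene and not between genes. Sums over genes and ranks among genes, where given, only describe the 3′ reads. The hairpin's target, MITF, read first as a check of the labels, gave 657, 663 and 708 without and 451, 354 and 371 with Dox in MeWo. In SkMel28 it gave 861, 739 and 792 without and 575, 578 and 552 with Dox. It was lower with Dox in both lines, without overlap, and the limma log2 change was −0.79 in MeWo (adjusted p 6.49e-05) and −0.49 in SkMel28 (adjusted p 0.00705). All 7 melanocytic markers examined were listed, and their summed value was 13021 to 13213 in MeWo control, 6465 to 8163 in MeWo Dox, 11009 to 12308 in SkMel28 control and, in SkMel28 Dox, 6597 to 6809. With Dox 6 of the 7 were called lower in MeWo (85.7%; all genes 8.12%) and 1 higher (14.3%; all genes 8.58%). In SkMel28 3 were called lower (42.9%; all genes 5.04%), none higher, and 4 were not called. MITF itself was 1 of these 7 markers and counts among those called lower in each line. The marker sums and counts are therefore not independent of the hairpin's target. Of markers of other cell types, none of 3 keratinocyte and none of 3 endothelial markers was listed. For fibroblasts 2 of 5 were listed (DCN and LUM), with a summed value of 41.5 to 47.8, 9.85 to 19.2, 10.9 to 13.3 and 6.04 to 8.91 in the same order of groups. For immune cells 1 of 3 was listed (CD68; 132 to 151, 57.5 to 147, 78.2 to 101 and 18.7 to 23.0), and for neurons 1 of 4 (SNAP25; 6.91 to 12.04, 0.339 to 1.60, 0 to 0.952 and 0.297 to 0.334). The markers of fibroblasts COL1A1, COL1A2 and PDGFRB, of immune cells PTPRC and CD3E, and of neurons SYT1, RBFOX3 and STMN2 were not listed. The part of these markers in the results below was not tested. In bulk samples such as these, fewer cells of a type and less RNA per cell cannot be told apart.

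Promoter sequence is shown for 4 genes whose levels changed with Dox and which hold an E-box, the kind of site that MITF and its relatives bind. RefSeq windows of 250 bases before an annotated start (GRCh38.p14) were found for 31 of the 40 channel genes, 56 windows in all. CACGTG, which reads the same on both strands, occurred in 7 of the 56 windows (12.5%), from 6 genes, against 8.43% of 14051 windows of all listed genes. CATGTG, searched on both strands and thus also as CACATG, occurred in 8 of 56 (14.3%) against 6.33%. These hexamers differ by 1 base and cannot occupy the same position. Each window reads 5′ to 3′ on the strand of its gene, and the capitals mark the hexamer.
KCNN4, chr19:43780974-43781223, − strand, CACGTG starting 185 bases before the annotated start: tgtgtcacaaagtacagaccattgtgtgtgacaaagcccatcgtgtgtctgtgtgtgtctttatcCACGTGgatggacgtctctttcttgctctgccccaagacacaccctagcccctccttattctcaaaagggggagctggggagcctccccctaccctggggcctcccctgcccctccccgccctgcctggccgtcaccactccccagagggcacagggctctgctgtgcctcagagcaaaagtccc
KCNAB2, chr1:6034438-6034687, + strand, CACGTG starting 14 bases before the start of 1 of its 4 windows: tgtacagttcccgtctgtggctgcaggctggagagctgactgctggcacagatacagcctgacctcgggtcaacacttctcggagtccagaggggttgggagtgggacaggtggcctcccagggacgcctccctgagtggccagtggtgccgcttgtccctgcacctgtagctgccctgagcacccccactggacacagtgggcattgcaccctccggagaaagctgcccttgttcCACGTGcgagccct
KCNAB1, chr3:156290787-156291036, + strand, CACGTG starting 58 bases before the start of the window shown and 8 before that of an overlapping window, which holds the same hexamer (2 of its 5 windows): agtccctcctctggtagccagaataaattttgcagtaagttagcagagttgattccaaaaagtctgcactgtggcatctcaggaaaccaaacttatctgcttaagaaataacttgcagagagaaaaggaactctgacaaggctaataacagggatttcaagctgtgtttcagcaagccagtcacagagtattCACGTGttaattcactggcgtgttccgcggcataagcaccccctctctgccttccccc
KCNJ13, chr2:232776566-232776815, − strand, CATGTG read on the other strand and starting 112 bases before the annotated start: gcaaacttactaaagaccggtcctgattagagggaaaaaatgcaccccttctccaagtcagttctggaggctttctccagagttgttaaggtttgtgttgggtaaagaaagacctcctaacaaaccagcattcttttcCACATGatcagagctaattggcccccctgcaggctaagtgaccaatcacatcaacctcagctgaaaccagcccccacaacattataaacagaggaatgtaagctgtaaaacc
Of the 13 genes called with Dox, 10 had a window, and 6 of these (KCNC1, KCNH1, KCNJ10, KCNK6, KCNQ5 and TRPM3) held neither hexamer. Genes not called with Dox also held a hexamer, namely KCNIP2, KCNK2, KCNMB3, TRPC1, TRPM2, TRPM7, TRPM8 and TRPV1. Of the 4 genes shown, KCNN4 was higher with Dox and the other 3 were lower in at least 1 line, so the same hexamer, CACGTG, stood before genes that moved in opposite directions. A match is a description of the letters in the window. Which of several annotated starts is used cannot be read from 3′ ends.

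In MeWo, 10 of the 40 channel genes (25%) were called with Dox, against 16.7% of all listed genes. Higher were 6 (15%; all genes 8.58%), among them KCNN4, TRPV4, CACNA2D4, KCNJ10 and KCNK6. Lower were 4 (10%; all genes 8.12%), namely KCNAB2, KCNQ5, KCNH1 and KCNJ13. In SkMel28, 5 of 40 (12.5%) were called, against 10.9% of all genes. KCNC1, TRPV4, KCNN4 and TRPM3 were higher (10%; all genes 5.88%) and KCNAB1 was lower (2.5%; all genes 5.04%). KCNN4 and TRPV4 were the genes called in both lines, which is 2 of the 10 in MeWo and 2 of the 5 in SkMel28, and both were higher in each. The share of all listed genes called in both lines is not given here, so this count stands without a comparison. The change with Dox itself differed between the lines for 5 of 40 genes (12.5%; all genes 7.09%), namely KCNAB2, KCNN4, KCNJ10, KCNC1 and CACNA2D4. The median log2 change of the 40 genes was 0.04 in MeWo and 0.05 in SkMel28, against 0 and 0.0029 over all listed genes. Counting groups instead whose 3 Dox and 3 control libraries did not overlap gave 14 of 40 in MeWo (35%; all genes 28.8%) and 12 of 40 in SkMel28 (30%; all genes 32.3%). The levels were mostly low. A mean under 5 over the 12 libraries was found for 26 of the 40 genes, and 24 never exceeded 10 in any library. Every listed gene reaches 1.002 or more in 3 or more libraries, and 10 genes (KCNJ10, KCNH1, KCNK2, KCNIP2, KCNC1, CACNA2D4, KCNK13, KCNK6, KCNH8 and TRPA1) would not have passed that limit without the libraries of a given group. Of those 10, KCNJ10, KCNH1, KCNC1, CACNA2D4 and KCNK6 are among the genes called with Dox and needed the group in which they were high, so that a difference was in part required for them to be listed. The same holds between the control groups for KCNH1, which needed MeWo control, and for TRPA1, which needed SkMel28 control.

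**Figure D1:**
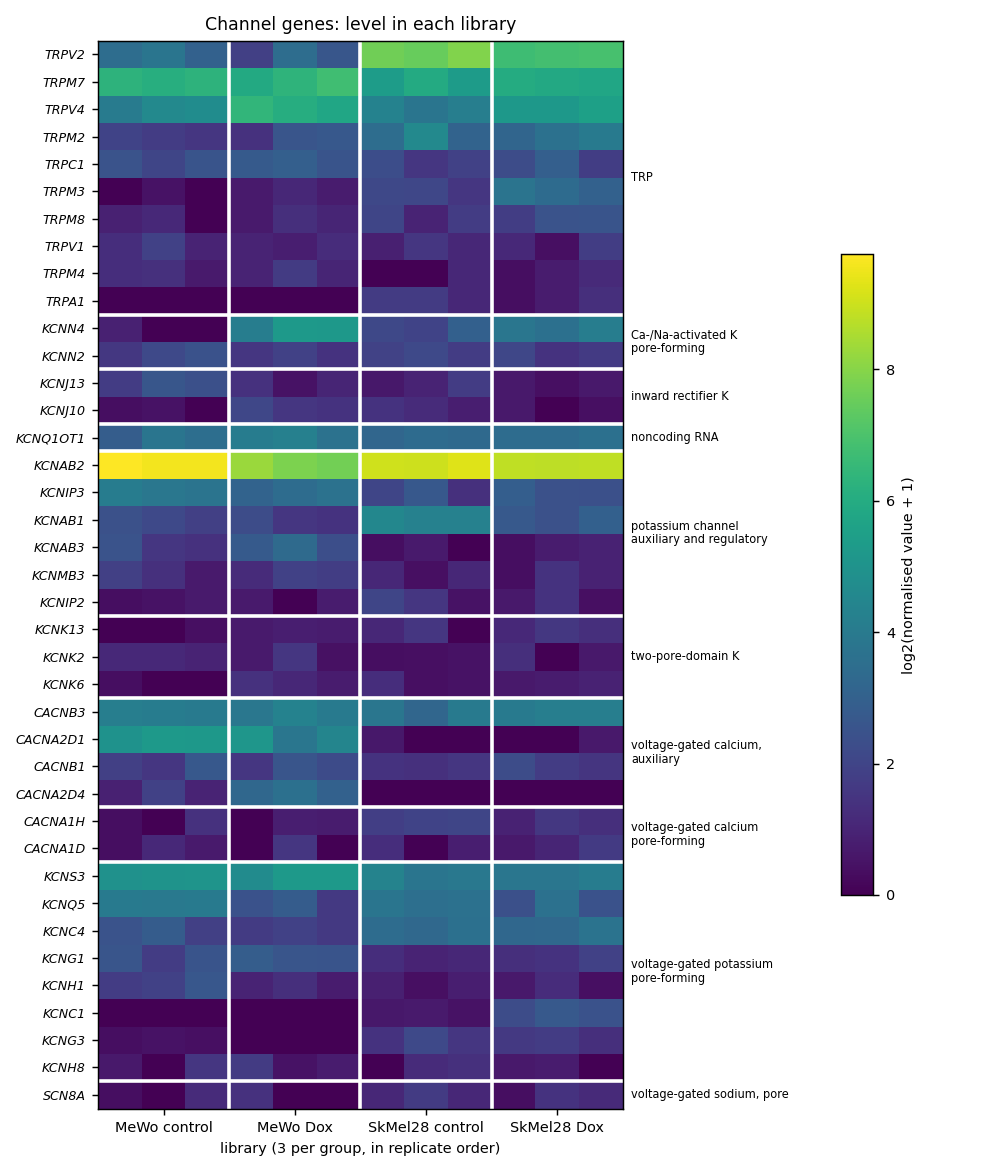
Level of 39 of the 40 channel genes (rows, ordered by family) in each of the 12 libraries (columns, 3 per group), as log2(normalised value + 1) by colour. KCNAB2 is the brightest row in every group and dims in MeWo Dox. TRPV2 is bright in the SkMel28 columns and CACNA2D1 in the MeWo columns.

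The calcium-activated potassium channel KCNN4 (KCa3.1, the intermediate-conductance channel opened by calcium through calmodulin) had the largest called rise of the 40 genes in MeWo. Its values were 0.864, 0 and 0 in MeWo control, from 3, 0 and 0 reads, and 16.6, 37.9 and 35.9 in MeWo Dox. In SkMel28 they were 3.34, 2.86 and 6.90 in control and 13.1, 11.0 and 16.6 with Dox. The Dox libraries lay above all control libraries in both lines. The pooled reads of MeWo differed 90.0-fold (95% interval 30.5 to 439, counting error only), and the log2 change was 4.58 (SE 0.35, limma adjusted p 1.19e-07). In SkMel28 the pooled ratio was 3.27 (2.27 to 4.81) and the log2 change 1.50 (SE 0.35, adjusted p 0.0102). That call was lost without SkMel28 control replicate 2 and without SkMel28 Dox replicate 3, where the log2 changes were 1.30 and 1.35. The rise was larger in MeWo by 3.08 (SE 0.50, adjusted p 0.00152). The SkMel28 control libraries also lay above the MeWo control libraries, with a ratio of 12.7 (4.04 to 64.2) and a log2 difference of 2.05 (SE 0.35, adjusted p 0.000117). KCNN2, a small-conductance relative that is opened by calcium in the same way, ranged from 1.67 to 4.53 over the 12 libraries and was called in no comparison.

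Among the 10 listed TRP genes, TRPV4 was called higher in MeWo (10%, against 8.58% of all genes). In SkMel28 TRPV4 and TRPM3 were called higher (20%, against 5.88% of all genes). None was called lower with Dox. TRPV4, a calcium-permeable channel that responds to osmotic swelling and warmth, stood at 15.8, 23.3 and 25.9 in MeWo control and at 83.9, 65.6 and 53.5 in MeWo Dox. In SkMel28 it stood at 19.2, 13.01 and 17.2 in control and at 35.9, 36.1 and 45.0 with Dox. No Dox library of either line overlapped the controls of that line. The MeWo mean was 21.7 ± 5.23 in control and 67.7 ± 15.3 with Dox, and the SkMel28 mean 16.5 ± 3.17 and 39.0 ± 5.21 (SD, n = 3). The log2 changes were 1.60 (SE 0.21, limma adjusted p 4.06e-05) and 1.20 (SE 0.21, adjusted p 0.000988). Their difference, 0.40, was not called (adjusted p 0.42).

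TRPM3, a heat- and steroid-activated cation channel whose gene also hosts a microRNA, stood at 3.34, 3.17 and 1.92 in SkMel28 control and at 12.5, 9.69 and 7.25 with Dox. The groups did not overlap and the log2 change was 1.50 (SE 0.28, limma adjusted p 0.00195). In MeWo it had 0, 1 and 0 reads in control and 2, 3 and 2 with Dox, with a log2 change of 0.69 that was not called (adjusted p 0.10). With a pseudocount of 0.1 the MeWo change was called (2.39) and that of SkMel28 was not (1.77). The difference between the lines, −0.80, was not called (adjusted p 0.22), but it was with a pseudocount of 5 (−0.73, adjusted p 0.024), and edgeR gave it the opposite sign (0.73, adjusted p 0.685). TRPV2, a calcium-permeable channel of the same subfamily as TRPV4, ran the other way in SkMel28, at 199, 180 and 240 in control and 103, 114 and 118 with Dox. These libraries did not overlap, but the fit over all libraries gave a log2 change of −0.87 (SE 0.29) with an adjusted p of 0.070, and TRPV2 was not called. Without MeWo Dox replicate 1 or 2, which enter only the shared spread, the same change had an adjusted p of 0.0058 or 0.0105, and the edgeR test on recovered reads gave 0.0047. DESeq2 also called it (adjusted p 0.000258). So did limma with a pseudocount of 5 (adjusted p 0.0118), spike-in scaling (0.0335) or only the libraries compared (0.0057). In MeWo TRPV2 was at 10.1, 12.8 and 7.13 in control and 2.55, 10.2 and 5.08 with Dox, where the libraries overlapped and a call was made only without Dox replicate 2 (log2 change −1.21). TRPM7, a channel fused to a kinase that passes magnesium and calcium, ranged from 40.2 to 108 and was called with Dox in neither line. The remaining TRP genes, TRPM2, TRPC1, TRPM8, TRPV1, TRPM4 and TRPA1, were called with Dox in neither line.

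Of the 6 auxiliary potassium channel genes, 1 was lower with Dox in each line (16.7%, against 8.12% and 5.04% of all genes). These were KCNAB2 in MeWo and KCNAB1 in SkMel28. Both code for beta subunits that bind the inside of voltage-gated potassium channels and resemble aldo-keto reductases. KCNAB2 stood at 860, 771 and 770 in MeWo control and at 307, 229 and 201 in MeWo Dox, without overlap. Pooled reads were 3.25-fold lower (3.10 to 3.41) and the log2 change was −1.72 (SE 0.13, limma adjusted p 1.22e-07). In SkMel28 it stood at 532, 511 and 620 in control and 453, 439 and 456 with Dox, also without overlap, with a log2 change of −0.30 (SE 0.13) that was not called (adjusted p 0.18). Without MeWo Dox replicate 1, which enters that change only through the shared spread, the adjusted p was 0.028. The change in MeWo minus that in SkMel28 was −1.42 (SE 0.19, adjusted p 0.000263).

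KCNAB2 made up the largest part of the summed level of the 40 genes in each group, and in MeWo the sum fell with it. The sum was 1048 to 1127 in MeWo control and 555 to 635 in MeWo Dox, with KCNAB2 making up 73.2 to 76.4% and 36.2 to 48.4%. Without KCNAB2 the sums were 266 to 282 and 328 to 370, so that the order of the groups turned around. In SkMel28 the sums were 902 to 1045 and 785 to 825, and 391 to 425 and 332 to 370 without KCNAB2. Sums of 3′ reads weigh genes by abundance and were not tested.

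KCNAB1 stood at 21.7, 18.7 and 18.4 in SkMel28 control and at 5.64, 4.34 and 6.95 with Dox. The groups were far apart, with pooled reads 3.48-fold lower (2.56 to 4.79) and a log2 change of −1.65 (SE 0.27, limma adjusted p 0.000633). In MeWo it stood at 4.32, 3.50 and 2.59 in control and 3.83, 1.90 and 1.69 with Dox, where libraries overlapped (log2 change −0.40, adjusted p 0.35). The difference between the lines, 1.25 (SE 0.39), missed the threshold (adjusted p 0.058), but passed it with a pseudocount of 5 (1.03) and with spike-in scaling (1.53). KCNIP3, a calcium-binding protein also known as DREAM or calsenilin, ranged from 7.66 to 16.1 over the MeWo libraries and 1.53 to 6.53 over those of SkMel28, and was not called with Dox in either line. KCNAB3, a further beta subunit, stood at 4.61, 1.94 and 1.62 in MeWo control and 5.75, 9.48 and 4.06 with Dox. Its log2 change of 1.02 missed the threshold (adjusted p 0.052) and passed it without MeWo control replicate 1 (1.35), MeWo Dox replicate 1 (1.05) or MeWo Dox replicate 3 (1.26), with spike-in scaling (1.23) and with a pseudocount of 5 (0.56). KCNMB3 and KCNIP2 were not called with Dox.

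**Figure D2:**
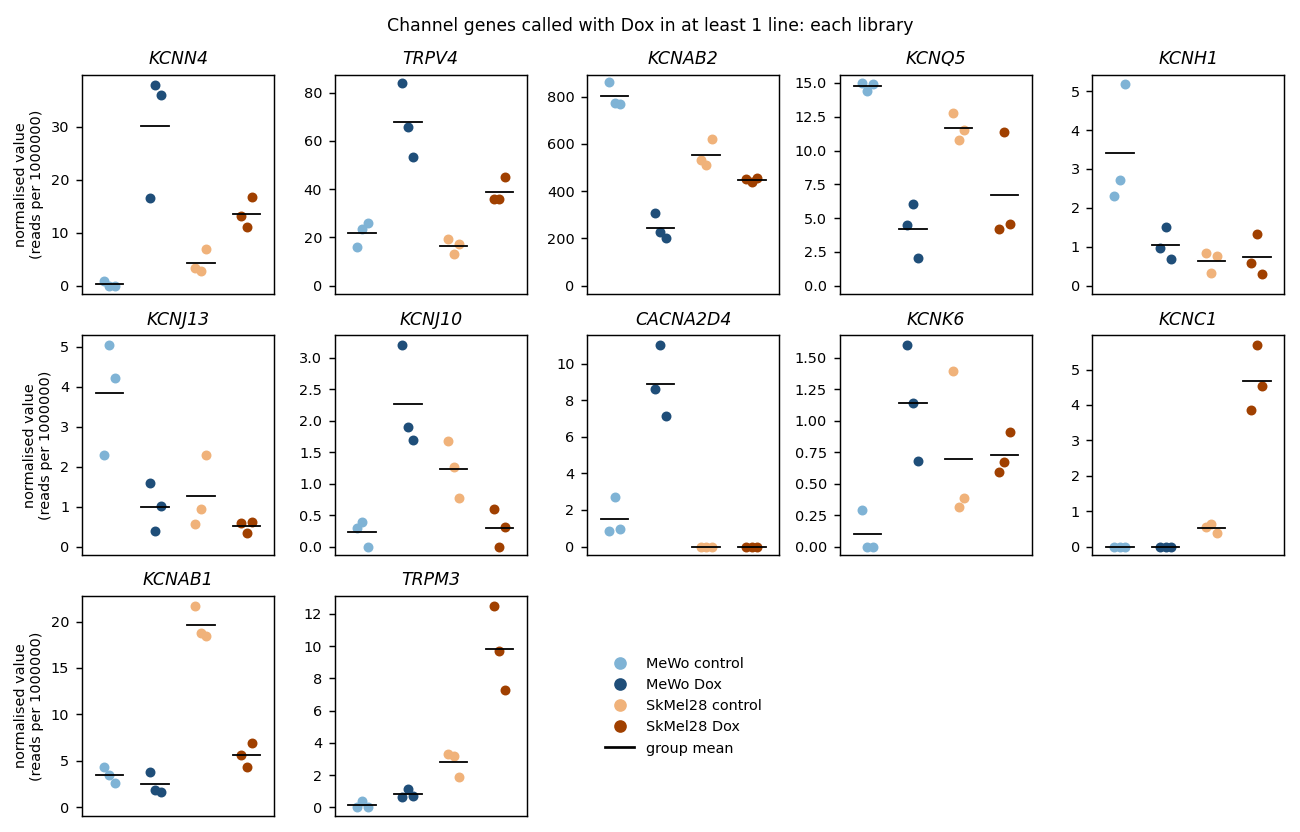
Normalised value (reads per 1000000, linear axes) of 12 of the 13 channel genes called with Dox in at least 1 line, with 1 point per library and a black line at the mean of 3. KCNN4 and TRPV4 rise in both lines, KCNAB2 goes from 770 to 860 in MeWo control to 201 to 307 in MeWo Dox, and KCNC1 and CACNA2D4 have points at 0 throughout 1 line.

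Among the 8 voltage-gated potassium channel genes, KCNQ5 and KCNH1 were lower in MeWo Dox (25%, against 8.12% of all genes). KCNC1 was higher in SkMel28 Dox (12.5%, against 5.88% of all genes). KCNQ5, one of the channels behind the slow M-type current, stood at 14.97, 14.4 and 14.9 in MeWo control and at 4.47, 6.06 and 2.03 with Dox. The libraries did not overlap, and the log2 change was −1.69 (SE 0.33, limma adjusted p 0.00173). In SkMel28 it stood at 12.8, 10.8 and 11.5 in control and 4.16, 11.4 and 4.53 with Dox, where Dox replicate 2 lay among the controls. The log2 change there was −0.84 (SE 0.33, adjusted p 0.12), and without that library KCNQ5 was called (−1.25, adjusted p 0.023). KCNH1, an ether-a-go-go channel known from work on tumour cells, stood at 2.30, 2.72 and 5.18 in MeWo control and at 0.958, 1.52 and 0.677 with Dox. Its log2 change of −1.07 (SE 0.32, adjusted p 0.0277) rested on 31 against 9 reads. The call was lost without MeWo control replicate 2 (−1.16), MeWo control replicate 3 (−0.79) or MeWo Dox replicate 3 (−0.93). DESeq2 did not make it (adjusted p 0.129). Nor did limma with spike-in scaling (adjusted p 0.0514), a pseudocount of 0.1 (0.0856) or only the libraries compared (0.0953).

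KCNC1 (Kv3.1), a fast-activating channel known from fast-spiking neurons, had 2, 2 and 1 reads in SkMel28 control and 13, 17 and 15 with Dox, which are values of 0.557, 0.635 and 0.383 and of 3.86, 5.68 and 4.53. The groups did not overlap, the pooled ratio was 8.70 (3.47 to 28.1) and the log2 change 1.89 (SE 0.25, limma adjusted p 6.51e-05). All 6 MeWo libraries had 0 reads of KCNC1. SERGEF lies over the last 500 bases of KCNC1 on the opposite strand (KCNC1 at chr11:17734774-17856804, + strand, hg38), and the strand used for counting is not given in the sources used here. SERGEF had means of 11.8 ± 0.52 and 12.5 ± 1.71 in MeWo control and Dox, and of 121 ± 5.96 and 91.1 ± 3.53 in SkMel28 control and Dox (SD, n = 3). It was thus also higher in SkMel28 than in MeWo, while in SkMel28 its Dox mean was below its control mean (log2 change −0.41, adjusted p 0.075). KCNS3, a silent subunit that modifies Kv2 channels, had the highest mean of its family and ranged from 24.9 to 37.9 in MeWo and 13.01 to 19.5 in SkMel28, with no call for Dox. KCNC4 was called in MeWo only without control replicate 3 (−0.95). KCNG1, KCNG3 and KCNH8 were not called with Dox in either line when 1 library was left out or with all. KCNG3, with 3 reads in MeWo control and 0 in MeWo Dox, was called lower in MeWo by 2 other limma fits. These were a pseudocount of 0.1 (−2.11, adjusted p 0.0156) and only the libraries compared (−0.41, adjusted p 0.0417).

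The inwardly rectifying channels KCNJ10 and KCNJ13 moved in opposite directions in MeWo. KCNJ10 (Kir4.1), a potassium-buffering channel of glia and of melanocyte-like cells of the inner ear, stood at 0.288, 0.389 and 0 in MeWo control and at 3.19, 1.90 and 1.69 with Dox. This is 2 against 20 reads, a ratio of 10.5 (2.54 to 92.4), with a log2 change of 1.40 (SE 0.29, limma adjusted p 0.0030). In SkMel28 the order was the opposite, at 1.67, 1.27 and 0.766 in control and 0.594, 0 and 0.302 with Dox, without overlap but not called (log2 change −0.79, adjusted p 0.099). The changes differed between the lines by 2.19 (SE 0.41, adjusted p 0.00411), so the difference was called although the change in SkMel28 was not.

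KCNJ13 (Kir7.1), a channel of pigment epithelium and other transporting epithelia, stood at 2.30, 5.05 and 4.21 in MeWo control and at 1.60, 0.379 and 1.02 with Dox. The log2 change was −1.28 (SE 0.34, limma adjusted p 0.0144), from 34 against 9 reads. The call was lost without MeWo control replicate 2 (−1.10), MeWo control replicate 3 (−1.21) or MeWo Dox replicate 2 (−1.04). Neither DESeq2 (adjusted p 0.0747) nor limma with only the libraries compared (adjusted p 0.0806) made it. KCNJ13 (chr2:232765802-232776565, − strand, hg38) lies within GIGYF2, which is on the opposite strand and whose means were 59.5 ± 7.83 in MeWo control and 78.0 ± 11.6 in MeWo Dox (SD, n = 3; adjusted p 0.074).

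Of the two-pore-domain leak channels, KCNK6 (TWIK-2) had 1, 0 and 0 reads in MeWo control and 5, 3 and 2 with Dox. The log2 change was 0.95 (SE 0.29, limma adjusted p 0.0346) and the ratio 10.5 (1.49 to 454). This call, which rests on 11 reads in all, was lost without MeWo control replicate 2 or 3 (0.89 each) and without MeWo Dox replicate 1 (0.80) or 2 (0.94), and also with edgeR (adjusted p 0.054). Neither DESeq2 (adjusted p 0.123) nor limma with a pseudocount of 5 (adjusted p 0.0752) made it. KCNK13 and KCNK2, the other listed members, were called in neither line.

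The voltage-gated calcium channel genes held 1 gene called with Dox, the auxiliary subunit CACNA2D4, higher in MeWo. It was 1 of 4 listed auxiliary members (25%, against 8.58% of all genes). Alpha-2-delta subunits help to bring calcium channels to the cell surface. CACNA2D4 (chr12:1791963-1918666, − strand, hg38) stood at 0.864, 2.72 and 0.972 in MeWo control and at 8.62, 11.0 and 7.11 with Dox, without overlap. Pooled reads differed 6.20-fold (3.42 to 12.2), with a log2 change of 2.03 (SE 0.29, limma adjusted p 0.000101). In all 6 SkMel28 libraries it had 0 reads. The difference between the lines therefore sets a change in MeWo against a gene not detected in SkMel28, as it does in reverse for KCNC1. For both genes limma called this difference, by 2.03 (SE 0.41, adjusted p 0.00724) for CACNA2D4 and by −1.89 (SE 0.35, adjusted p 0.0036) for KCNC1, while edgeR gave an adjusted p of 1.00 for each.

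CACNA2D1, the other listed alpha-2-delta gene, stood at 30.2, 37.7 and 35.3 in MeWo control and 33.8, 13.3 and 20.7 in MeWo Dox. Dox replicate 1 lay among the controls, and the log2 change of −0.68 (SE 0.32) was not called (adjusted p 0.17). Without that library it was called (−1.005, adjusted p 0.024). The beta subunit genes CACNB3, which ranged from 8.25 to 19.0 over the 12 libraries, and CACNB1 were called in no comparison. The pore-forming genes CACNA1H, of the T-type, and CACNA1D, of the L-type, never exceeded 3.07 and were not called with Dox.

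SCN8A, which codes for the pore-forming sodium channel Nav1.6, never exceeded 2.22 and was called in no comparison with all libraries. The noncoding RNA KCNQ1OT1, transcribed from within the KCNQ1 locus and known for imprinting it, stood at 6.33, 12.8 and 10.4 in MeWo control and 16.0, 18.2 and 11.9 with Dox, and its log2 change of 0.62 was not called (adjusted p 0.091), except with spike-in scaling (0.87, adjusted p 0.030).

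**Figure D3:**
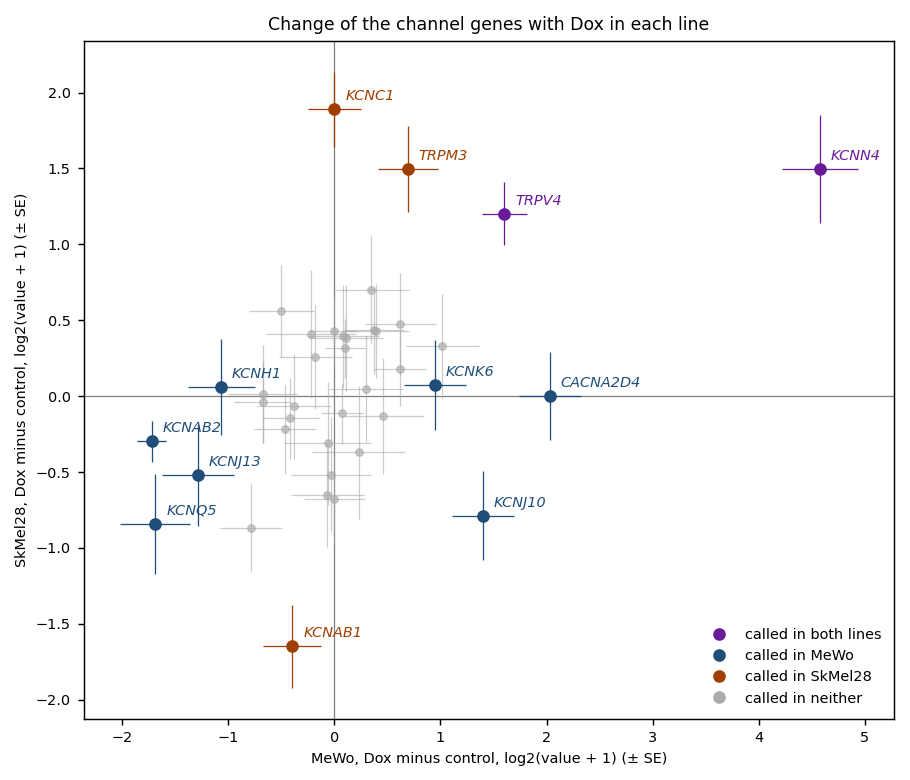
Change of 39 of the 40 channel genes with Dox, as the difference of log2(value + 1), in MeWo (horizontal axis) and in SkMel28 (vertical axis), with bars of 1 SE from limma. KCNN4 and TRPV4 lie to the upper right, at 4.58 and 1.50 and at 1.60 and 1.20, while KCNJ10 lies to the lower right, at 1.40 and −0.79.

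The uninduced lines differed in more channel genes than either line did with Dox. Between SkMel28 control and MeWo control 22 of the 40 channel genes (55%) were called, against 51.4% of all listed genes. Of the 40, 12 were higher in SkMel28 (30%; all genes 26.6%) and 10 lower (25%; all genes 24.8%). Libraries did not overlap for 25 genes (62.5%; all genes 62.1%). The widest differences were those of TRPV2 and CACNA2D1. TRPV2 stood at 10.1, 12.8 and 7.13 in MeWo control and 199, 180 and 240 in SkMel28 control, a ratio of 20.7 (16.8 to 25.9) and a log2 difference of 4.26 (SE 0.29, limma adjusted p 2.08e-09). CACNA2D1 stood at 30.2, 37.7 and 35.3 in MeWo control but had 2, 0 and 0 reads in SkMel28 control. Its pooled reads were 159-fold lower in SkMel28 (43.7 to 1321), with a log2 difference of −4.93 (SE 0.32, adjusted p 1.03e-09).

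Of the 10 TRP genes, 5 were higher in SkMel28 (50%; all genes 26.6%). Beside TRPV2 these were TRPM2, TRPM3, TRPA1 and TRPM8. TRPM2, a channel opened by ADP-ribose under oxidative stress, stood at 2.88, 2.33 and 1.94 in MeWo control and at 10.3, 23.2 and 7.66 in SkMel28 control (log2 difference 1.99, SE 0.38, limma adjusted p 0.000327). TRPM3 differed by 1.75 (adjusted p 5.94e-05). TRPA1, which senses electrophilic irritants, had 0 reads in all 6 MeWo libraries and 8, 7 and 3 reads in SkMel28 control (adjusted p 0.000331). With MeWo control set at a floor of 3 reads over the group, TRPA1 was 5.86-fold higher, without allowance for the counting error of the SkMel28 reads. It would not have been listed without the SkMel28 control libraries. MSC-AS1 lies over its 3′ end on the opposite strand and had means of 9.40 ± 1.40 in MeWo control and 9.21 ± 2.40 in SkMel28 control (SD, n = 3). TRPM8, the cold and menthol receptor, stood at 0.864, 1.17 and 0 against 3.06, 0.952 and 2.30, with overlapping libraries. Its call (0.90, adjusted p 0.0437) was lost without MeWo control replicate 1 (1.01) or 3 (0.56), SkMel28 control replicate 1 (0.67) or 3 (0.82), or SkMel28 Dox replicate 2 (0.90). Nor was the call made by edgeR (adjusted p 0.0611), DESeq2 (0.0850) or limma with a pseudocount of 5 (0.0680). TRPM7 was the TRP gene that was lower in SkMel28, at 78.3, 68.0 and 77.7 against 41.2, 60.9 and 40.2 (log2 difference −0.67, adjusted p 0.00821).

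Potassium channel genes stood on both sides. KCNAB1 was higher in SkMel28 control, at 21.7, 18.7 and 18.4 against 4.32, 3.50 and 2.59 (log2 difference 2.22, SE 0.27, limma adjusted p 2.99e-06), whereas its relatives KCNAB3 and KCNAB2 were lower, by −1.46 (adjusted p 0.0019) and −0.53 (adjusted p 0.00302). KCNIP3 was lower, at 3.06, 5.39 and 1.53 against 16.1, 13.6 and 12.6 (−1.90, SE 0.30, adjusted p 5.1e-05). Of the voltage-gated family, KCNG3 (1.29, adjusted p 0.000624) and KCNC4 (1.06, adjusted p 0.00325) were higher, and KCNH1 (−1.38, adjusted p 0.0014, not listed without the MeWo control libraries), KCNG1 (−1.17, adjusted p 0.00234) and KCNS3 (−0.98, adjusted p 0.000536) were lower. KCNG1 and KCNG3 are both silent modifier subunits, and they differed in opposite directions. KCNJ13 was lower in SkMel28 by −1.13 (adjusted p 0.00974), a call lost without MeWo control replicate 2 (−0.94) or SkMel28 control replicate 1 (−0.89), and with DESeq2 (adjusted p 0.0522). CACNA1H was higher (1.34, adjusted p 0.00378) and CACNA2D4 lower (adjusted p 0.00162). With SkMel28 control set at a floor of 3 reads over the group, CACNA2D4 was 4.44-fold lower, without allowance for the counting error of the MeWo reads. KCNJ10 (0.86, adjusted p 0.0206) was also called, but not without MeWo control replicate 3 or SkMel28 control replicate 1 (0.72 each). Neither DESeq2 (adjusted p 0.0875) nor limma with a pseudocount of 5 (adjusted p 0.0529) called KCNJ10 there. KCNC1 (0.61, adjusted p 0.0498) rested on 5 reads against 0. Of the fits without 1 library, it was called only in that without SkMel28 Dox replicate 2, and its differences in the others were 0.55 to 0.67. Genes not called with all libraries but called without 1 of them were TRPV4 (without MeWo control replicate 1, −0.57), SCN8A (without MeWo control replicate 3, 1.11), and KCNIP2 (1.26), KCNK13 (1.17) and TRPM4 (−1.12), each without SkMel28 control replicate 3. With all libraries, edgeR also called KCNIP2 (2.01) and KCNK13 (2.87), and a pseudocount of 0.1 TRPM4 (−2.42).

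**Figure D4:**
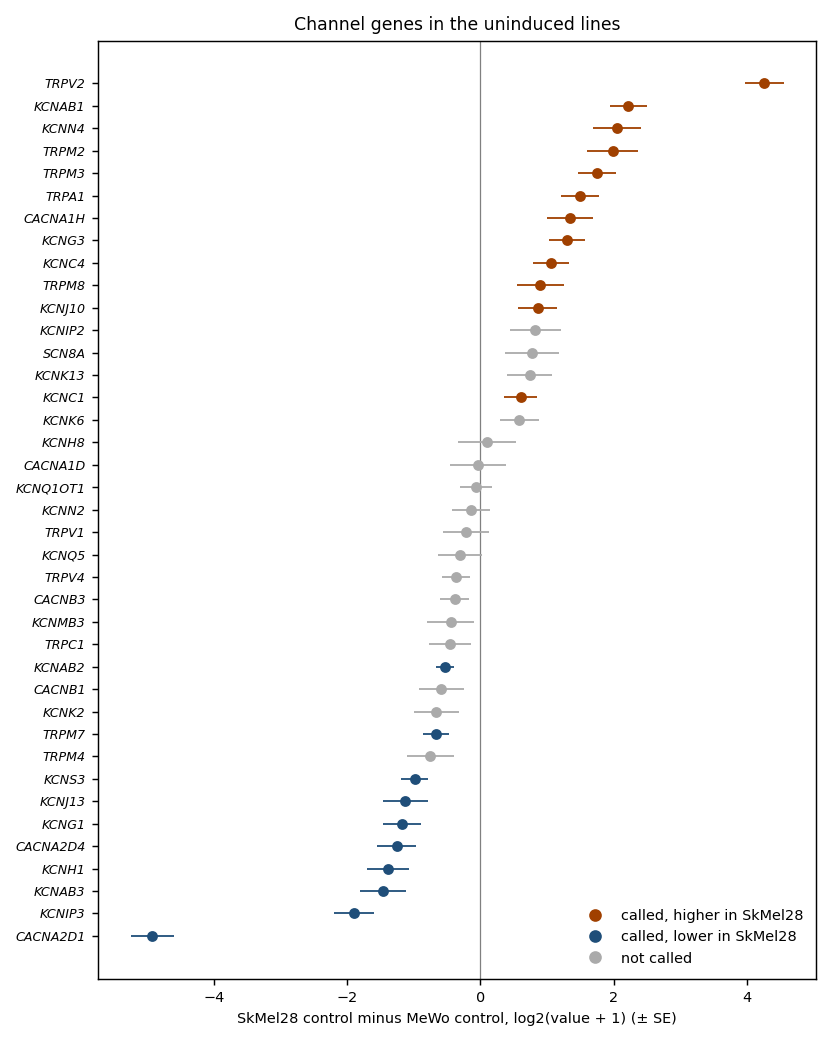
Difference between the control groups, SkMel28 minus MeWo, in log2(value + 1) for 39 of the 40 channel genes, with bars of 1 SE from limma and colours for the called genes. CACNA2D1 at −4.93 and TRPV2 at 4.26 stand apart, and the remaining genes lie between −1.90 and 2.22.

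The genes that surround channels in ion handling were counted in 6 lists. Of the sodium-potassium pump genes, 6 of 15 were listed: 4 were higher with Dox in MeWo (66.7%; all genes 8.58%) and none lower, and 2 were lower in SkMel28 (33.3%; all genes 5.04%) and none higher. FXYD3, a small regulator of the pump, had the largest called change in each line, with means of 10.5 ± 2.62 and 38.0 ± 2.76 in MeWo control and Dox and of 44.1 ± 2.51 and 17.1 ± 3.81 in SkMel28 control and Dox (SD, n = 3). Its log2 changes were 1.78 (SE 0.19, limma adjusted p 4.71e-06) and −1.33 (SE 0.19, adjusted p 0.000164), opposite in sign, and they differed by 3.12 (SE 0.27, adjusted p 4.99e-06). Of store release and entry genes, 9 of 12 were listed and 1 was called, upward, in each line (11.1%; all genes 8.58% and 5.88%). It was STIM2, a calcium sensor of the endoplasmic reticulum, at 0.87 (adjusted p 0.00157) in MeWo and 0.91 (adjusted p 0.00166) in SkMel28.

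Of calcium pumps and exchangers, 9 of 18 were listed. In MeWo 1 was higher and 1 lower (11.1% each; all genes 8.58% and 8.12%), and in SkMel28 3 were higher (33.3%; all genes 5.88%) and none lower. The largest called change in MeWo was that of the plasma membrane pump gene ATP2B1 (0.47, limma adjusted p 0.0411), and in SkMel28 that of the exchanger gene SLC24A1 (0.73, adjusted p 0.0422). Of 8 symbols of mitochondrial calcium uptake genes 7 were listed. The other, MCUB, is a newer name of the listed CCDC109B, so no gene of this list was missing. Called was 1, MCUR1, lower in MeWo (−0.56, adjusted p 0.00793), which is 14.3% beside 8.12% of all genes. Of other ion channel genes, 28 of 58 were listed, with 5 higher and 2 lower in MeWo (17.9% and 7.14%; all genes 8.58% and 8.12%) and 2 higher and 2 lower in SkMel28 (7.14% each; all genes 5.88% and 5.04%). The stretch-activated channel gene PIEZO2 had the largest called change in MeWo, from 14.4 ± 0.975 to 42.0 ± 7.33 (SD, n = 3; log2 change 1.47, adjusted p 0.000279), and ANO6, a calcium-activated scramblase and channel, in SkMel28, from 10.5 ± 3.04 to 27.6 ± 7.58 (1.32, adjusted p 0.00258). Of calcium response genes, 18 of 20 were listed, with 1 higher and none lower in MeWo (5.56% higher; all genes 8.58%) and 1 higher and 2 lower in SkMel28 (5.56% and 11.1%; all genes 5.88% and 5.04%). NFATC2, a transcription factor activated through calcineurin, had the largest called change in both lines. Its mean in MeWo was 4.52 ± 1.36 in control and 52.4 ± 13.03 with Dox (SD, n = 3; log2 change 3.27, limma adjusted p 5.33e-09). In SkMel28 the means were 176 ± 6.45 and 645 ± 22.2 (log2 change 1.87, adjusted p 4.03e-06).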

How the data were processed

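RNA of 12 libraries (MeWo and SkMel28, each with and without Dox, 3 per group) was analysed from 1 table of normalised values. Per the labels, the processing notes name FastQC 0.11.7, cutadapt 2.8, STAR 2.5.1b, edgeR and hg38. The counting tool, annotation and strand are not given in the sources used here. The deposited values are a signal: the authors divided reads by the effective library size and multiplied by 1000000. In each library 100% of values were whole multiples of 1 step (tolerance 0.001 reads), which gave back the reads. The 67 spike-ins among 12683 features were set aside. Log2(value + 1) was fitted with limma 3.58.1 (R 4.3.3; lmFit, eBayes with trend) over 12 libraries and 4 group means, two-sided, with Benjamini-Hochberg adjustment over 12616 genes per contrast. Alternatives included edgeR 4.0.16 and DESeq2 1.42.0 on recovered reads, other scalings (upper-quartile, spike-in), pseudocounts of 0.1 and 5, a filter of 5 in 3 libraries, no trend, a replicate block, only the libraries compared, and leaving out each library. The scripts were tested on simulated data. Ratios of pooled reads carry exact binomial 95% intervals, and these and the floors of 3 reads cover counting error only, as reads without molecular identifiers are not independent molecules.

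The members, gene lists and tests were chosen with earlier results of these data known. Named were MITF, each channel gene called with Dox or for the difference, up to 10 per direction between controls, the most abundant of each family, and the largest called change per list and line; TRPV2 with Dox, KCNN2 and the genes counted as not called were added after their values were seen. The values of 1 channel gene are not reported here. Nothing says that replicates are separate cultures, so p-values measure the spread between these samples, which may be technical. All 40 loci were taken from GENCODE 44 (hg38): 9 overlap another listed gene, and in 4 (KCNC1, KCNJ13, KCNMB3, TRPA1) one lies over the last 500 bases.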

Additional observations from a re-analysis of the deposited data

Results flagged for a closer look

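The change with Dox differed between the lines, by the test of that difference in limma, for 5 channel genes, as log2 change in MeWo minus log2 change in SkMel28. It was −1.42 for KCNAB2 (adjusted p 0.000263), which was 3.25-fold lower with Dox in MeWo. It was 3.08 for KCNN4 (adjusted p 0.00152), which was higher in both lines and more so in MeWo. It was 2.19 for KCNJ10 (adjusted p 0.00411), with no more than 10 reads in any library of either line. It was −1.89 for KCNC1 (adjusted p 0.0036), with 0 reads in all MeWo libraries, and 2.03 for CACNA2D4 (adjusted p 0.00724), with 0 reads in all SkMel28 libraries. All 3 MeWo Dox libraries lay above and all 3 SkMel28 Dox libraries below their own controls for KCNJ10. KCNJ10 and CACNA2D4 would not have been listed without the MeWo Dox libraries, nor KCNC1 without those of SkMel28 Dox, the groups in which they were high, so for these 3 a difference was in part required.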

How the results depend on the processing

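Counts of called channel genes with 1 library left out ranged from 7 to 11 in MeWo (10 with all), 4 to 7 in SkMel28 (5 with all), 5 to 5 for the difference between the lines and 18 to 23 between controls (22 with all). Requiring a value of 5 in 3 libraries, which leaves fewer genes to test, gave 5 in MeWo and 12 between controls. A pseudocount of 0.1 gave 3 in SkMel28, without KCNN4 and TRPM3, and 3 for the difference. For the difference edgeR gave 3, without KCNC1 and CACNA2D4, and DESeq2 gave 2. DESeq2 gave no adjusted p for KCNJ10, KCNC1 and CACNA2D4, so it decided nothing about these 3. Their means over the 12 libraries were 1.00, 1.30 and 2.61, and the cause of the missing values was not tested. Of 898 alternative values of the 42 called changes, 835 stayed past the threshold, 63 did not and 0 reversed, and 28 of the 42 stayed past it throughout. Spike-in scaling shifted the median gene by 0.26 in MeWo, −0.09 in SkMel28, 0.35 for their difference and 0.14 between controls. It ended the calls of KCNH1 in MeWo and of KCNAB2, TRPM7 and KCNC1 between controls, and it added KCNQ1OT1 (0.87) and KCNAB3 (1.23) in MeWo, TRPV2 (−0.97) in SkMel28 and KCNAB1 (1.53) for the difference. A fit with a replicate block gave 10, 5, 5 and 20, the last without KCNC1 and TRPM8. Between libraries of equal replicate number, correlations of the deviations from the group means ran from −0.18 to 0.22. Libraries of unequal number were not set beside them, so these values do not decide whether equal numbers shared a culture or day. The fit of only the libraries compared cannot be made for the difference, which needs all 4 groups. Depth limits the low genes: 7 to 11 channel genes per group had 3 reads or fewer in every library, and a difference between groups that both lie there was not detectable.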
